A study of Mus musculus with 21 samples.

Results

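The genes described are 10 members of endothelial bone morphogenetic protein (BMP) and transforming growth factor beta (TGF-beta) signalling: the ligands Bmp4 and Bmp6, the receptors Acvrl1, Bmpr2 and Tgfbr2, the co-receptor Eng, the inhibitory Smads Smad6 and Smad7, and the target genes Id1 and Id3. They were chosen by symbol and not by a rule on their values, although earlier results of these data were known. Each matched 1 row of the 23827 rows (23351 different symbols) in the expression tables. All 10 had counts in every sample and were tested in every comparison.

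Translating ribosome affinity purification followed by RNA sequencing (TRAP-seq) was used on forebrain and kidney of mouse embryos at embryonic day 14.5, in 21 samples of 7 groups with 3 replicates each. In TRAP a ribosomal protein, Rpl10a, carries an mCherry tag in cells that have expressed Cre, and the ribosome-bound RNA of those cells (the translatome) is pulled down from a whole-organ extract with antibody beads. The study asked how far the translatome departs from total RNA (the transcriptome), and which transcripts distinguish a cell population from its organ. All embryos carried the Gt(ROSA)26Sor-mCherry-Rpl10a+/- allele.

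The driver set the group. Brain and kidney transcriptome samples and whole-organ translatome samples came from Sox2Cre+/- embryos, in which recombination takes place in the embryo proper. Brain and kidney endothelial cell (EC) translatome samples came from Cdh5CreERT2+/- embryos whose dams had received tamoxifen by oral gavage. Tamoxifen and driver cannot be told apart in these groups. The Emx1 translatome samples came from Emx1Cre+/- forebrain, where the driver is active in the lineage of the dorsal telencephalon. The tag was made from the CAGGS promoter, the allele derived from 1 targeted embryonic stem cell clone, organs of more than one embryo were pooled for a library, and the forebrain dissection took in part of the diencephalon. Endothelial and Emx1 libraries were each sequenced in lanes of their own group, so lane and group cannot be told apart.

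BMP and TGF-beta ligands bind pairs of type I and type II receptor kinases, which phosphorylate Smad proteins that enter the nucleus and switch on target genes. In endothelium the type I receptor Acvrl1 (ALK1), the type II receptors Bmpr2 and Tgfbr2, and the co-receptor Eng (endoglin) carry much of this signalling, and mutations in ENG and ACVRL1 cause hereditary haemorrhagic telangiectasia. Smad6 and Smad7 are induced by the pathway and dampen it, while Id1 and Id3, inhibitors of basic helix-loop-helix transcription factors, are classical BMP targets.

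Sequences just upstream of the start sites are shown for members that moved together or apart between the organs. RefSeq promoter windows (GRCm38.p6) were matched for 7 of 10 members (Eng, Bmpr2, Tgfbr2, Smad6, Id3, Bmp4 and Bmp6). Eng and Tgfbr2 were higher in the endothelial cells of both organs, whereas Smad6 and Bmp4 were higher in brain but not in kidney. The 250 bases before the annotated start of these 4 genes overlap no annotated exon and are given 5′ to 3′ on the gene's strand, with the Smad-binding box CAGAC, or GTCTG where it lies on the other strand, in capitals.
Eng, chr2:32646345-32646594, plus strand: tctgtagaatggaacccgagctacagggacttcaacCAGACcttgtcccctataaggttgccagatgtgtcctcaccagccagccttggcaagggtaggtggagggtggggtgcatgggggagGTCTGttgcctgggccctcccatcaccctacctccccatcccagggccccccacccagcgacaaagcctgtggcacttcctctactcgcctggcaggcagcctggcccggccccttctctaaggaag
Tgfbr2, chr9:116175364-116175613, minus strand: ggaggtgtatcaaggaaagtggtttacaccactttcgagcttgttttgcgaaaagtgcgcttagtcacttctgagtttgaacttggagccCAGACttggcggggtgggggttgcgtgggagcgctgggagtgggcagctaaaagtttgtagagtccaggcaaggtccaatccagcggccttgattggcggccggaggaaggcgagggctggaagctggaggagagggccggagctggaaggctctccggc
Smad6, chr9:64022060-64022309, minus strand: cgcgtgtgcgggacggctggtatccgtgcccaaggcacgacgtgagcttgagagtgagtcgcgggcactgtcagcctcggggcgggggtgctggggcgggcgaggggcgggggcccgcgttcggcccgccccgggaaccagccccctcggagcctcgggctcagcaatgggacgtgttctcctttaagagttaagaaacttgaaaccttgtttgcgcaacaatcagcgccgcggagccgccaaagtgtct
Bmp4, chr14:46390670-46390919, minus strand: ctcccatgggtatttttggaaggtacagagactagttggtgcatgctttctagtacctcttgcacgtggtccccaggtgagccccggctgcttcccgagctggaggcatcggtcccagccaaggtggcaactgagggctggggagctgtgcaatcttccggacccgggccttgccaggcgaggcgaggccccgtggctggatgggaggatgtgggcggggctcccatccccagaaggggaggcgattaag

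The box occurred 2 times upstream of Eng, 1 time upstream of Tgfbr2 and 0 times upstream of Smad6 and Bmp4. In the matched windows not shown, which overlap exons of their own gene, it occurred 2 times for Id3, 1 time for Bmp6 and 0 times for Bmpr2. Id3 (log2 fold change 2.90 in brain EC and -0.10 in kidney EC) and Bmp6 (1.08 and -1.84) moved apart between the organs, so the box did not follow that split. On either strand it is in 42.2% of 32851 promoter windows of that length, so its presence is ordinary. The GC-rich element GGCGCC was in 0 of the 4 windows shown (9.59% of all windows), and so was the ETS-type motif ACCGGAAGT (0.804% of all windows). GGCGCC occurred 1 time in the Bmpr2 window, which is not shown. A match in letters is a description of the window and not evidence of binding.

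Levels below are RPKM, reads scaled by transcript length and by the number of mapped reads, which can be compared between genes. Fold changes are edgeR estimates from read counts, scaled so that the bulk of genes is centred near 0, and a gene was called when its adjusted p (Benjamini-Hochberg over all rows tested) was under 0.001. Libraries held 21760652 to 79231692 reads on genes. Leaving out the composition scaling moved the median log2 fold change of all rows to -0.30 in brain EC and to -0.41 in kidney EC against their whole-organ translatomes. RPKM carries no such scaling, so ratios of RPKM come out smaller than the fold changes in both comparisons, and changes are given relative to the bulk of genes.

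The labels of the endothelial groups were checked against 10 endothelial markers (Cdh5, Pecam1, Tek, Tie1 and others). All 10 were higher in EC than in whole-organ translatome in both organs, with log2 fold changes of 3.96 to 4.77 in brain and 2.48 to 3.18 in kidney. Their summed level was 3408 to 3578 RPKM in brain EC samples against 189 to 211 in brain translatome samples, and 2246 to 2680 against 423 to 452 in kidney. Other cell types remained visible. Neural markers summed to 425 to 540 RPKM in brain EC (2398 to 2421 in brain translatome), and kidney epithelial markers to 80.1 to 97 in kidney EC (433 to 469 in kidney translatome). Fibroblast and stromal markers were higher in brain EC (5 of 6 called, 127 to 204 against 93.9 to 110 RPKM) but lower in kidney EC (3 of 6 called, 295 to 436 against 503 to 651). Mural cell markers, of pericytes and smooth muscle, summed to 36.2 to 42.9 RPKM in brain EC against 60 to 73.5 in brain translatome, and to 138 to 150 against 214 to 227 in kidney. They went both ways: of 8 genes, 1 was called higher and 5 lower in brain EC, and 2 higher and 5 lower in kidney EC. The part of these residual cell types in the member values was not tested. In bulk samples, fewer cells of a type and less RNA per cell cannot be told apart.

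**Figure D1:**
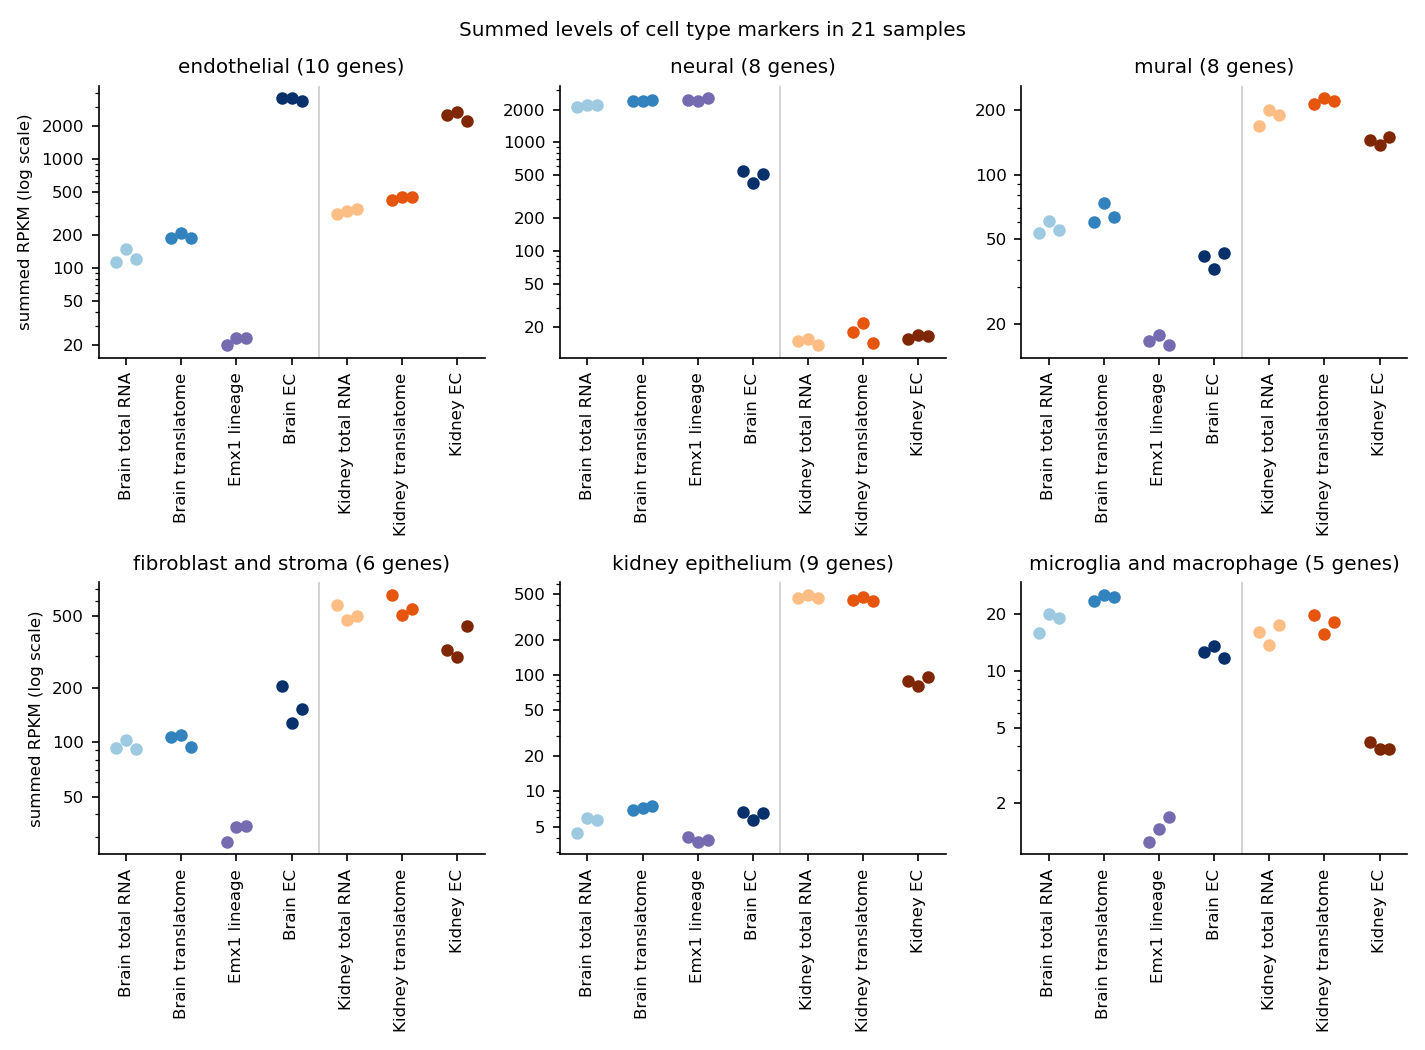
Summed RPKM (log scale) of 6 marker lists, 1 point per sample, in the 4 brain groups (left of the grey line) and the 3 kidney groups (right). Endothelial markers stand highest in both EC groups, and the stromal sum in brain EC (127 to 204) lies above that of the brain translatome (93.9 to 110) while in kidney EC (295 to 436) it lies below that of the kidney translatome (503 to 651).

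In brain all 10 members were higher in EC than in the whole-forebrain translatome, where 24.8% of the 19103 rows tested were higher and 21.4% lower. The members' median log2 fold change was 2.44, beside -0.01 for all rows. In kidney 4 members were higher (Eng, Acvrl1, Tgfbr2 and Id1), 2 were lower (Bmp4 and Bmp6) and 4 did not pass the test, where 16.7% of 18940 rows were higher and 15% lower. Their median there was 0.21, beside -0.04 for all rows. Scaled by total counts alone, the rows called higher and lower were 17.8% and 31.4% in brain and 8.26% and 29.9% in kidney.

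**Figure D2:**
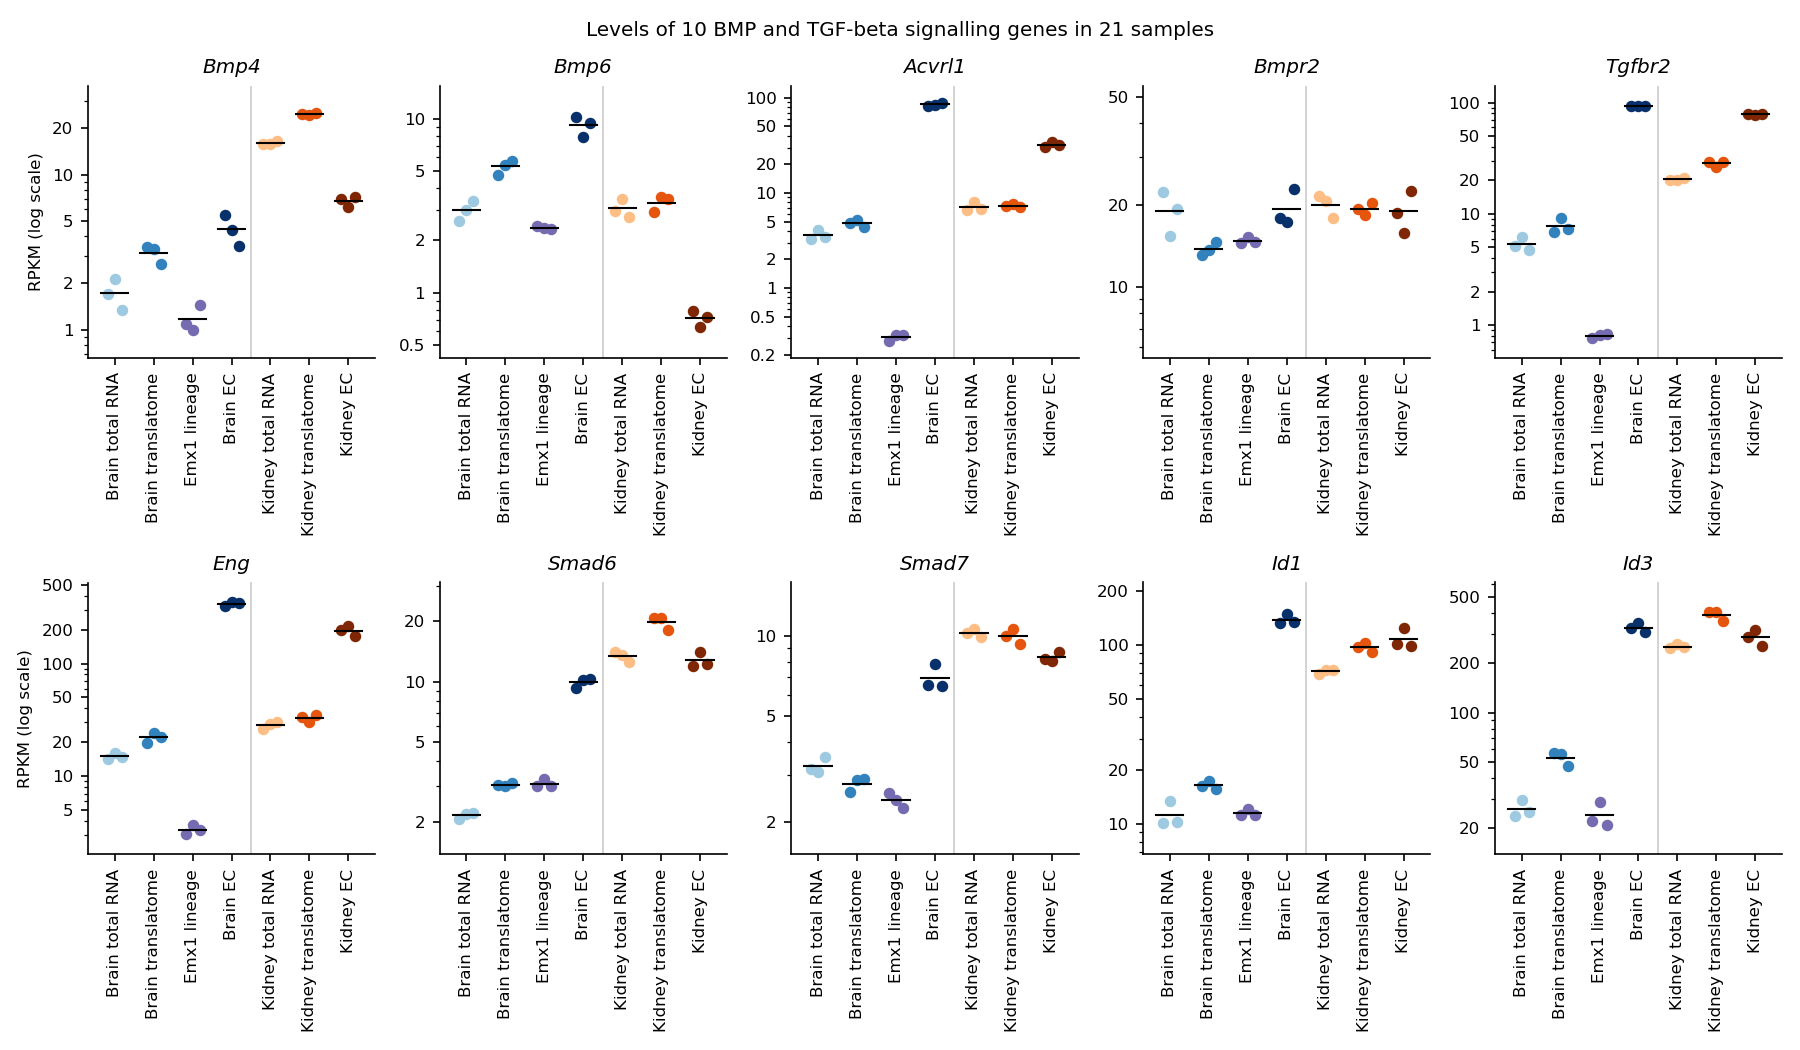
RPKM (log scale) of the 10 genes in 21 samples, with 1 point per sample and a black line at the mean of each group; brain groups are left of the grey line. Eng, Acvrl1 and Tgfbr2 are highest in both EC groups and lowest in the Emx1 lineage, Bmpr2 is nearly level, and Bmp6 is highest in brain EC (mean 9.22) and lowest in kidney EC (mean 0.715).

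Among the ligands, Bmp6, known as the signal by which liver endothelium controls iron balance, showed opposite directions in the organs. It stood at 10.3, 7.88 and 9.47 RPKM in the brain EC samples and at 4.78, 5.46 and 5.75 in the brain translatome samples. Kidney EC samples had 0.785, 0.634 and 0.726 RPKM, and kidney translatome samples 2.9, 3.55 and 3.46. The groups did not overlap in either organ. The log2 fold change was 1.08 (SE 0.11, adjusted p = 1.6e-06) in brain and -1.84 (SE 0.16, adjusted p = 2.7e-06) in kidney. Bmp6 shares exonic sequence on the opposite strand with Txndc5, and whether the counting used strand is not given in the sources used here. Txndc5 averaged 97.2 RPKM in kidney EC against 175 in kidney translatome, and 61.5 in brain EC against 41.9 in brain translatome.

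Bmp4, a ligand with broad roles in embryonic patterning, had a call in brain that rested on most of the libraries. Its level was 5.48, 4.43 and 3.48 RPKM in brain EC and 3.44, 3.3 and 2.65 in brain translatome. In kidney EC it was 6.97, 6.23 and 7.19 RPKM, against 24.8, 24.3 and 24.9 in kidney translatome. The brain groups came close to touching, while the kidney groups lay far apart. Bmp4 was 1.74-fold higher in brain EC (log2 fold change 0.80, SE 0.16, adjusted p = 7.2e-04) and 2.83-fold lower in kidney EC (-1.50, SE 0.08, adjusted p = 7.8e-08). The brain call was lost without brain translatome replicate 1 (0.88, adjusted p = 5.5e-03), 2 (0.83, 1.2e-03) or 3 (0.69, 4.5e-03), and without brain EC replicate 1 (0.62, 3.2e-03). Scaling by total counts alone left 0.50 (adjusted p = 0.016).

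Acvrl1, the type I receptor, had the largest fold change of the members in brain EC. Its level was 82.9, 85.1 and 88.8 RPKM there, against 4.89, 5.18 and 4.42 in brain translatome. In kidney EC it was 30.8, 34.6 and 31.6 RPKM, against 7.36, 7.67 and 7.09 in kidney translatome. Every EC sample exceeded every whole-organ sample. The fold change was 21.7 in brain (log2 4.44, SE 0.08, adjusted p = 4.8e-13), larger than that of 99.1% of rows, and 5.61 in kidney (log2 2.49, SE 0.07, adjusted p = 4.6e-10). An annotated antisense gene, Gm16031, overlaps its exons and has no row in the tables.

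Eng, the co-receptor that presents BMP ligands to Acvrl1, had the highest mean of the members in brain EC, with 325.8, 349.4 and 345 RPKM. Brain translatome samples had 19.6, 24.3 and 22.4 RPKM. Kidney EC samples had 197.2, 215.7 and 176.4 RPKM, and kidney translatome samples 33.6, 30.5 and 34.7. Again no EC sample overlapped with a whole-organ sample. Eng was 18.8-fold higher in brain EC (log2 4.23, SE 0.10, adjusted p = 1.0e-12) and 7.63-fold higher in kidney EC (log2 2.93, SE 0.09, adjusted p = 9.2e-10). Its exons overlap those of Fpgs on the other strand, which averaged 10.3 RPKM in brain EC and 17.1 in kidney EC.

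Tgfbr2, the type II receptor for TGF-beta ligands, had tight replicates: 93.7, 93.8 and 93.2 RPKM in brain EC and 79.6, 77.3 and 78.9 in kidney EC. Whole-organ translatomes held 6.93, 9.2 and 7.34 RPKM in brain and 29.2, 26.5 and 29.4 in kidney. The EC levels of the organs were thus close, and the whole-organ levels were not. The fold change was 14.6 in brain (log2 3.87, SE 0.10, adjusted p = 2.9e-12) and 3.54 in kidney (log2 1.82, SE 0.07, adjusted p = 3.2e-09).

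Bmpr2, the type II receptor for BMP ligands, differed least between groups. It was at 17.9, 17.3 and 22.9 RPKM in brain EC and at 13.1, 13.6 and 14.6 in brain translatome. Kidney EC samples had 18.7, 15.8 and 22.5 RPKM and kidney translatome samples 19.3, 18.4 and 20.3, with overlapping ranges. The brain difference of 1.72-fold was called (log2 0.78, SE 0.10, adjusted p = 1.6e-05). The kidney difference was not (log2 0.33, SE 0.11, adjusted p = 0.028), although it passed without kidney EC replicate 2 (0.46, adjusted p = 9.4e-04). Over the 7 groups the mean of Bmpr2 ran from 13.8 to 20.1 RPKM.

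**Figure D3:**
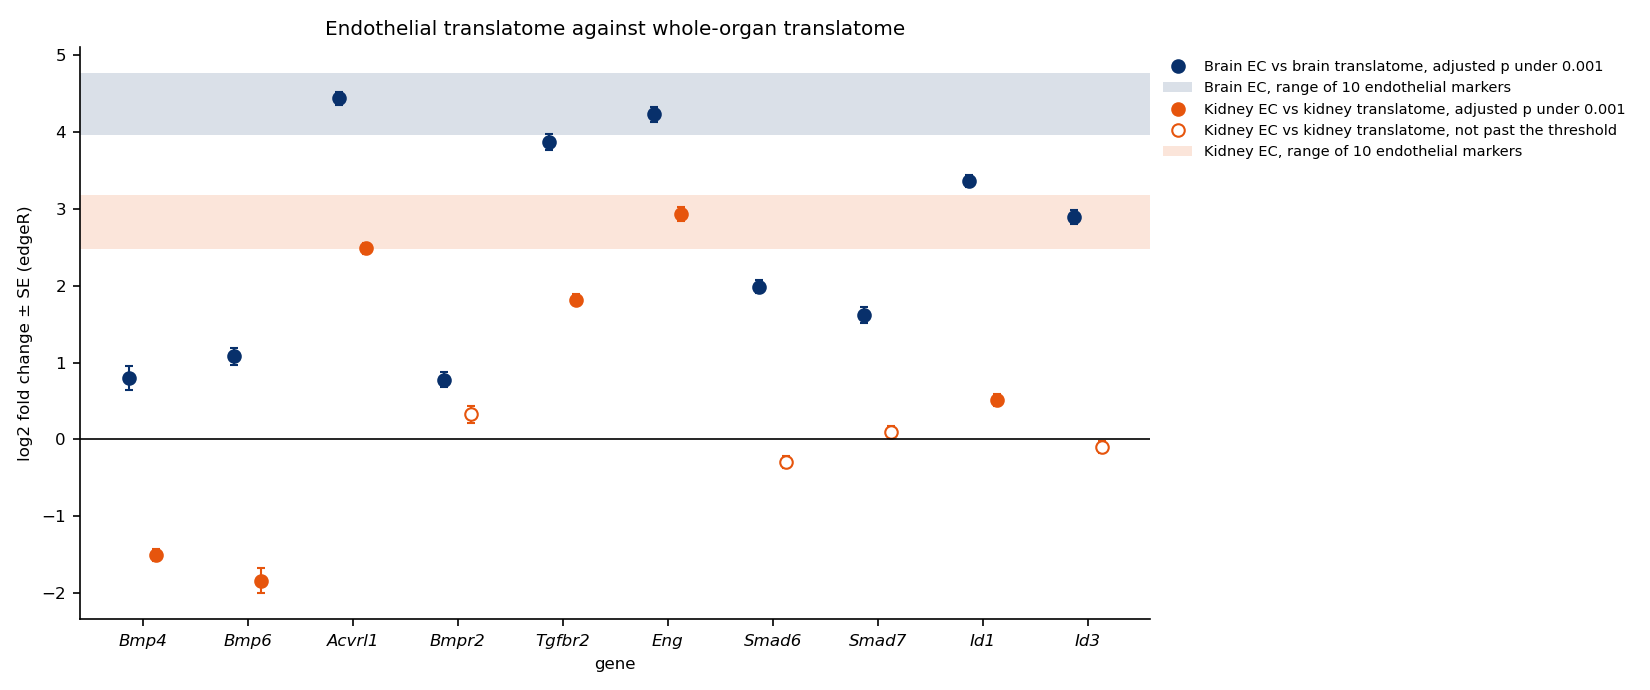
Log2 fold change of each gene (points, bars ± SE, edgeR, 3 against 3 samples) in EC against whole-organ translatome, blue for brain and orange for kidney; filled points passed an adjusted p of 0.001 and shaded bands span the 10 endothelial markers. In brain Acvrl1 (4.44) and Eng (4.23) lie within the marker band, and in kidney Eng (2.93) and Acvrl1 (2.49) do. Bmp4, Bmp6, Smad6 and Id3 lie below 0 only in kidney, where Smad6 and Id3 did not pass.

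The inhibitory Smads were higher in brain EC and not in kidney EC. Smad6, which preferentially restrains BMP receptors, was at 9.25, 10.2 and 10.3 RPKM in brain EC against 3.05, 3 and 3.1 in brain translatome. In kidney EC it was at 12, 14 and 12.2 RPKM against 20.8, 20.8 and 18.1 in kidney translatome. The groups were apart in both organs, in opposite order on the RPKM scale. Relative to the bulk of genes the log2 fold change was 1.99 (SE 0.08, adjusted p = 2.2e-10) in brain and -0.29 (SE 0.08, adjusted p = 0.01) in kidney. The kidney value did not pass, except when scaled by total counts alone (-0.66, adjusted p = 3.1e-05) or fitted with all 21 samples (-0.32, adjusted p = 7.9e-04).

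Smad7, which restrains both TGF-beta and BMP receptors, had 6.56, 7.85 and 6.5 RPKM in brain EC against 2.58, 2.86 and 2.9 in brain translatome. Kidney EC samples had 8.16, 8.08 and 8.72 RPKM and kidney translatome samples 9.97, 10.6 and 9.32. Brain EC samples stood well above, and kidney EC samples slightly below, their organ. The log2 fold change was 1.62 (SE 0.10, adjusted p = 7.2e-09) in brain and 0.10 (SE 0.08, adjusted p = 0.3) in kidney, the latter turning to -0.27 (adjusted p = 8.5e-03) with total counts alone.

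The target genes Id1 and Id3 had high levels in the EC samples of both organs, but stood out from the organ mainly in brain. Id1 was at 133.8, 149.4 and 134 RPKM in brain EC against 16.4, 17.5 and 15.7 in brain translatome. Kidney EC samples had 102, 125.3 and 98.5 RPKM against 98.4, 102.4 and 91.2, with overlapping ranges. In brain EC Id1 was 10.3-fold higher (log2 3.36, SE 0.08, adjusted p = 9.6e-13). The 1.43-fold difference in kidney (log2 0.51, SE 0.08, adjusted p = 3.7e-04) was lost without kidney translatome replicate 1 (0.52, adjusted p = 1.5e-03) or 3 (0.47, adjusted p = 4.5e-03), with total counts alone (0.14, adjusted p = 0.18) and with a stricter count filter (0.49, adjusted p = 1.1e-03).

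Id3 was at 324.7, 346.1 and 308.2 RPKM in brain EC against 57.1, 56.1 and 47.4 in brain translatome. In kidney EC it was at 284.7, 316.3 and 253 RPKM, below the 407.7, 407 and 358.1 of kidney translatome. On the RPKM scale the whole kidney thus stood above its endothelial fraction. The log2 fold change was 2.90 (SE 0.09, adjusted p = 6.8e-12) in brain and -0.10 (SE 0.08, adjusted p = 0.32) in kidney. With total counts alone the kidney value was -0.47 (adjusted p = 5.2e-04).

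Group means put the members into different orders over the 7 groups (mean RPKM ± SD, n = 3 in each). Eng ran from brain EC (340 ± 12.6) and kidney EC (196 ± 19.6) through kidney translatome (32.9 ± 2.14), kidney total RNA (28.4 ± 2.19), brain translatome (22.1 ± 2.39) and brain total RNA (15.0 ± 0.887) to the Emx1 lineage (3.36 ± 0.344), with no overlap of neighbouring ranges. Acvrl1 kept that order, from 85.6 ± 2.99 in brain EC to 0.306 ± 0.0241 in the Emx1 lineage, and overlapped only between kidney translatome (7.37 ± 0.290) and kidney total RNA (7.12 ± 0.786). Tgfbr2 kept it too, from 93.5 ± 0.306 in brain EC through 20.3 ± 0.550 in kidney total RNA and 5.36 ± 0.805 in brain total RNA to 0.805 ± 0.0383, without overlap. These 3 genes shared a single order, with both EC groups on top. Bmpr2 did not, since kidney total RNA (20.1 ± 1.95), brain EC (19.4 ± 3.07), kidney translatome (19.3 ± 0.923), brain total RNA (19.0 ± 3.45) and kidney EC (19.0 ± 3.35) overlapped in sequence. The Emx1 lineage (14.7 ± 0.357) and the brain translatome (13.8 ± 0.767) lay below them and overlapped each other.

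The kidney groups led for Smad6, Smad7 and Bmp4. Smad6 fell from kidney translatome (19.9 ± 1.55) through kidney total RNA (13.4 ± 0.810), which overlapped kidney EC (12.7 ± 1.09), to brain EC (9.92 ± 0.589), the Emx1 lineage (3.10 ± 0.157) and brain total RNA (2.15 ± 0.0753). Smad7 fell from kidney total RNA (10.3 ± 0.339), which overlapped kidney translatome (9.96 ± 0.646), to brain total RNA (3.24 ± 0.229) and the Emx1 lineage (2.41 ± 0.153). Bmp4 fell from 24.7 ± 0.338 in kidney translatome and 16.0 ± 0.334 in kidney total RNA to 1.73 ± 0.401 in brain total RNA, which overlapped the Emx1 lineage (1.17 ± 0.233). Both Id genes were low in every brain group but EC. Id1 was at 11.3 ± 1.86 in brain total RNA and 11.5 ± 0.527 in the Emx1 lineage, against 71.8 ± 2.45 in kidney total RNA. Id3 was at 26.1 ± 3.14 and 23.9 ± 4.30 in those brain groups, against 251 ± 7.40 in kidney total RNA. Bmp6 had brain EC and brain translatome means above those of all kidney groups, and its kidney total RNA (3.06 ± 0.374) and brain total RNA (2.98 ± 0.404) overlapped.

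The organ difference in the enrichment of EC over whole-organ translatome was itself tested in 12 samples. It was larger in brain for 9 of 10 members, where 16.5% of 19764 rows were larger in brain and 8.6% in kidney (17.1% and 13.6% with DESeq2). The members' median difference was 2.19 on the log2 scale, beside 0.15 for all rows. Endothelial markers also had a larger enrichment in brain, by 1.41 to 1.90 in all 10, so a difference of about that size was shared by genes that mark the cells. Members were not tested against this range, so their place beside it is a description. Eng (1.33, SE 0.13) lay below that range and Smad7 (1.55, SE 0.13) within it. Acvrl1 (1.98, SE 0.09), Tgfbr2 (2.07, SE 0.12), Smad6 (2.31, SE 0.12) and Bmp4 (2.33, SE 0.19) lay above it. The largest values belonged to Id1 (2.88, SE 0.12), Bmp6 (2.95, SE 0.19) and Id3 (3.03, SE 0.13). Adjusted p for these 9 genes ran from 1.1e-11 to 2.3e-07, and Bmpr2 did not pass (0.48, SE 0.17, adjusted p = 0.032).

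Whole-organ levels differed between brain and kidney for most members. Against kidney translatome the brain translatome was lower for 7 members and higher for 1, where 26.2% of 19241 rows were lower and 27.2% higher. Bmp4 fell furthest (log2 fold change -2.77, SE 0.10), followed by Id3 (-2.67, SE 0.08), Smad6 (-2.51, SE 0.09), Id1 (-2.35, SE 0.07), Tgfbr2 (-1.66, SE 0.09) and Smad7 (-1.64, SE 0.09). Bmp6 was the member higher in brain (0.89, SE 0.12, adjusted p = 1.6e-05). Eng was close to the threshold (-0.38, SE 0.08, adjusted p = 6.9e-04), and its adjusted p was between 2.1e-03 and 7.7e-03 without brain translatome replicate 1 or 3 or kidney translatome replicate 1 or 3. It also missed the threshold with RLE size factors (adjusted p = 1.0e-03) and with at least 10 counts in 3 samples (-0.40, adjusted p = 1.6e-03). Acvrl1 (-0.41, adjusted p = 1.1e-03) and Bmpr2 (-0.29, adjusted p = 1.4e-03) did not pass. Acvrl1 passed with DESeq2 (-0.41, adjusted p = 8.1e-05), with total counts alone (-0.60, adjusted p = 4.3e-05), with at least 10 counts in 3 samples (-0.43, adjusted p = 9.1e-04) and in a fit of all 21 samples (-0.41, adjusted p = 1.0e-04). Bmpr2 passed with DESeq2 (-0.29, adjusted p = 6.1e-04), with total counts alone (-0.48, adjusted p = 1.3e-05) and without brain translatome replicate 3 (-0.34, adjusted p = 8.4e-04). This comparison shares its samples with the enrichment values above.

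The endothelial cells of the organs were also compared with each other. Brain EC exceeded kidney EC for 3 members, where 20.1% of 19238 rows were higher in brain EC and 16.9% in kidney EC. Bmp6 was 13.2-fold higher in brain EC (log2 3.72, SE 0.15, adjusted p = 5.2e-09), Acvrl1 2.73-fold (1.45, SE 0.07, adjusted p = 2.2e-08) and Eng 1.79-fold (0.84, SE 0.08, adjusted p = 7.5e-06). The other 7 members did not pass: Tgfbr2 (0.29, SE 0.07, adjusted p = 2.6e-03), Id1 (0.40, SE 0.09, adjusted p = 2.6e-03), Id3 (0.24, SE 0.08, adjusted p = 0.029), Bmpr2 (0.07, SE 0.14, adjusted p = 0.7), Smad7 (-0.21, SE 0.09, adjusted p = 0.066), Smad6 (-0.31, SE 0.08, adjusted p = 6.0e-03) and Bmp4 (-0.57, SE 0.16, adjusted p = 9.4e-03). In RPKM, every brain EC sample exceeded every kidney EC sample for Bmp6, Acvrl1, Eng, Tgfbr2 and Id1. The reverse held for Smad6, Smad7 and Bmp4, and the ranges overlapped for Id3 and Bmpr2. The share of all rows without overlap was not counted. Id1 passed with the replicate number as a block (0.41, adjusted p = 6.0e-04), and without kidney EC replicate 2 (0.51, adjusted p = 3.3e-04). Among the 10 endothelial markers, 4 were higher in brain EC and 1 in kidney EC. Neural markers were higher in brain EC (8 of 8) and kidney epithelial markers in kidney EC (8 of 9), whose part in the member values was not tested.

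In the Emx1 lineage, neural cells of the dorsal telencephalon, Acvrl1, Tgfbr2 and Eng were at their lowest levels of the 7 groups. Acvrl1 had 0.278, 0.322 and 0.318 RPKM, Tgfbr2 0.765, 0.809 and 0.841, and Eng 3.04, 3.72 and 3.33. Against brain translatome 7 members were lower and 0 higher, where 12.8% of 19006 rows were lower and 9.2% higher (14.6% and 6.22% with total counts alone). Acvrl1 was 15.4-fold lower (log2 -3.94, SE 0.11, adjusted p = 2.1e-12), Tgfbr2 9.34-fold (-3.22, SE 0.11) and Eng 6.38-fold (-2.67, SE 0.09). The 10 endothelial markers were lower as well, by 2.25 to 4.47 on the log2 scale. Mural, microglial and stromal markers fell in the same samples, each of them in full (8 of 8, 5 of 5 and 6 of 6).

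Id3 (-1.12, SE 0.10), Bmp4 (-1.35, SE 0.15) and Bmp6 (-1.11, SE 0.10) were 2.16-fold to 2.55-fold lower in the Emx1 lineage, with 22.1, 28.9 and 20.9 RPKM of Id3 remaining. Id1 was lower by a smaller margin (-0.47, SE 0.08, adjusted p = 1.8e-04), and missed the threshold without Emx1 replicate 1 (adjusted p = 1.3e-03) or 3 (adjusted p = 1.0e-03). Bmpr2 (0.15, SE 0.06, adjusted p = 0.036), Smad6 (0.07, SE 0.09, adjusted p = 0.52) and Smad7 (-0.14, SE 0.09, adjusted p = 0.2) did not pass. Smad6 stood at 3.01, 3.28 and 3 RPKM in the Emx1 lineage, a range that overlapped that of the brain translatome. Bmpr2, at 14.5, 15.2 and 14.6 RPKM, overlapped it too. This comparison and that of brain EC share the brain translatome samples.

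The whole-organ translatome and transcriptome showed how the members' ribosome-bound level departs from total RNA. In brain 7 members were higher in the translatome and 0 lower, where 18.6% of 19446 rows were higher and 18.5% lower. Id3 had the largest difference (57.1, 56.1 and 47.4 RPKM against 23.6, 29.6 and 25.2 in total RNA, log2 1.06, SE 0.09). It was followed by Bmp4 (0.89, SE 0.16), Bmp6 (0.86, SE 0.12), Eng (0.58, SE 0.08), Tgfbr2 (0.57, SE 0.11), Id1 (0.57, SE 0.11) and Smad6 (0.53, SE 0.10). Leaving out brain translatome replicate 1 or brain transcriptome replicate 1 left 4 of these genes short of the threshold: Tgfbr2 (0.62 and 0.54), Smad6 (0.50 and 0.50), Id1 (0.55 and 0.50) and Bmp4 (0.78 and 0.87). Without brain translatome replicate 2, Tgfbr2 (0.45), Id1 (0.53) and Bmp4 (0.85) missed it, as did Smad6 without brain translatome replicate 3 (0.51) and Id1 without brain transcriptome replicate 3 (0.51). Acvrl1 (0.45, adjusted p = 1.2e-03) and Bmpr2 (-0.44, adjusted p = 2.5e-03) did not pass, but did with the replicate number as a block (adjusted p = 6.9e-06 and 1.3e-05). That block pairs the translatome and transcriptome libraries of the same tissue samples, a pairing left out of the other values here. Smad7 was at -0.20 (adjusted p = 0.084).

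In kidney 5 members were higher in the translatome, Id3 (log2 0.64, SE 0.06), Bmp4 (0.63, SE 0.05), Smad6 (0.57, SE 0.07), Tgfbr2 (0.48, SE 0.05) and Id1 (0.44, SE 0.05), where 14.9% of 19336 rows were higher and 15.8% lower. Bmp4 had 24.8, 24.3 and 24.9 RPKM in the kidney translatome and 15.8, 15.8 and 16.4 in total RNA, without overlap. Eng (0.21, SE 0.06, adjusted p = 0.017) passed only with the replicate block (0.22, adjusted p = 3.5e-07). Bmp6 (0.11), Acvrl1 (0.05), Smad7 (-0.04) and Bmpr2 (-0.05) had adjusted p of 0.51 to 0.65. Endothelial markers in the whole-organ samples summed to 189 to 211 RPKM in brain translatome and 116 to 149 in brain total RNA, and to 423 to 452 and 315 to 348 in kidney, and their part in the member values was not tested.

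**Figure D4:**
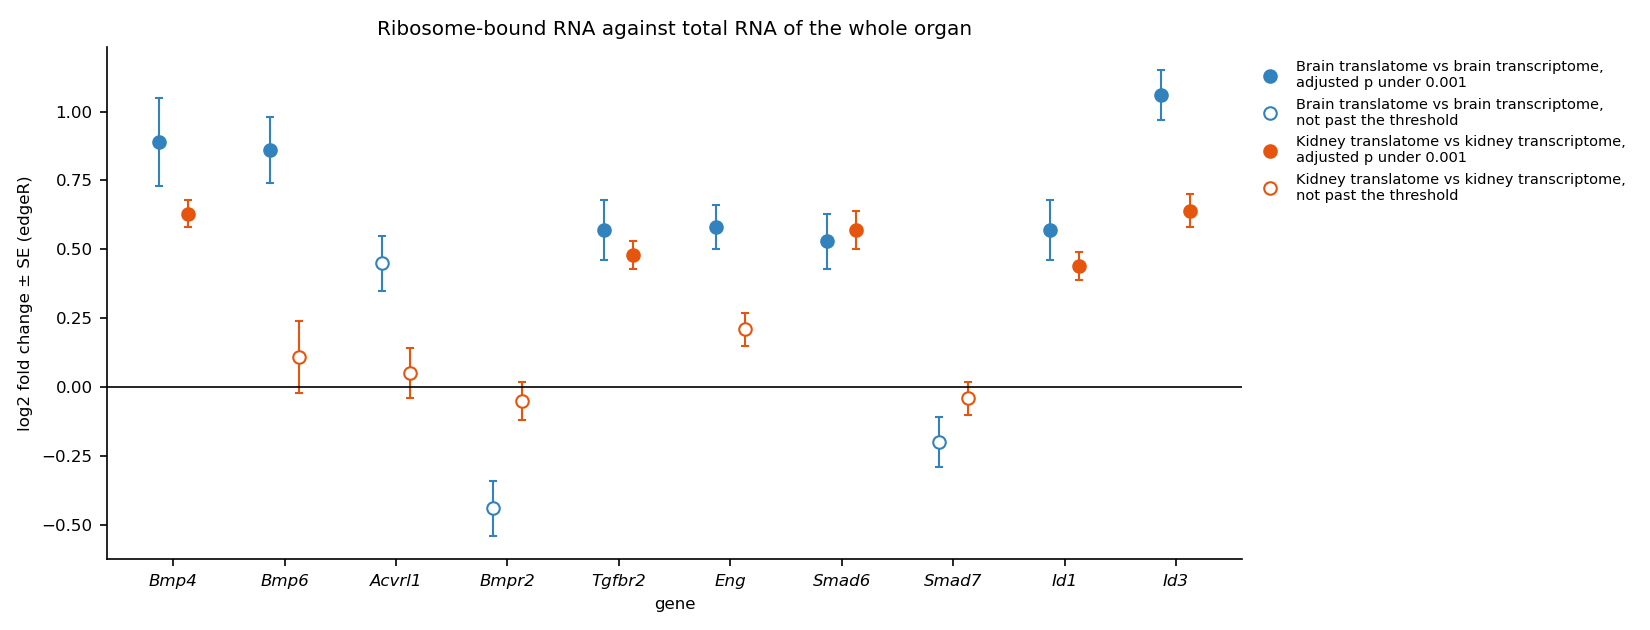
Log2 fold change (points, bars ± SE, edgeR, 3 against 3 samples) of each gene between translatome and transcriptome of the whole organ, blue for forebrain and orange for kidney; filled points passed an adjusted p of 0.001. Id3 has the highest value in both organs (1.06 and 0.64), and Bmpr2 and Smad7 lie at or below 0 in both.

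The organ difference in this ribosome association was tested in 12 samples, and 0 of 10 members passed in edgeR or in DESeq2, where 6.47% of 20108 rows did in edgeR. An unadjusted p under 0.05 was found for 5 members. The share of all rows under that limit was not counted, so the 5 cannot be judged against it. Bmp6 came nearest (0.73, SE 0.18, adjusted p = 7.3e-03). These values come from a fit that leaves out the pairing of translatome and transcriptome libraries from the same tissue samples. With that pairing as a replicate block 3 members passed: Bmp6 (0.75, adjusted p = 1.0e-05), Id3 (0.41, adjusted p = 9.9e-05) and Eng (0.35, adjusted p = 2.9e-04). The block also called more of all rows, as given in the section on processing.

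Setting the endothelial cells against total RNA is the other reference the study used. In brain 9 of 10 members were higher in EC than in total RNA, where 26.8% of 19522 rows were higher and 24.3% lower (19.3% and 35.2% with total counts alone). Id3 was at 3.98 (SE 0.10) against total RNA and 2.90 against the translatome, and Bmp4 at 1.70 (SE 0.19) and 0.80. Bmpr2 passed against the translatome but not against total RNA (0.36, SE 0.13, adjusted p = 0.027). In kidney 5 members were higher and 2 lower, where 22.7% of 19335 rows were higher and 18.4% lower (11.6% and 35.5% with total counts alone). Id3 was called higher against total RNA (0.61, SE 0.07, adjusted p = 3.9e-05) although it was at -0.10 against the translatome, but with total counts alone it was at 0.17 (adjusted p = 0.059). The EC samples are shared by the comparisons of each organ.

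The wider pathway was followed in 48 further genes, of ligands, receptors, signal transducers, targets and extracellular modulators. In brain EC 19 were higher, 17 lower and 12 did not pass, their median being 0.03 on the log2 scale, beside 24.8% and 21.4% of all rows higher and lower. In kidney EC 9 of the 47 tested were higher, 17 lower and 21 did not pass, with a median of -0.45, beside 16.7% and 15% of all rows higher and lower. Tgfbr1, Smad3, Gdf2, Bmp10, Id4 and, in the caption on the pathway genes, Nbl1 are named in the EC comparisons below after their values were seen, and the other names follow the fixed rule.

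Of the 12 further ligands, 4 were higher and 3 lower in brain EC, and 1 was higher and 5 lower in kidney EC. Tgfb1, a ligand of Tgfbr2, was the one higher in both, at 81.8 RPKM in brain EC against 7.41 (log2 3.76, SE 0.10) and 148 in kidney EC against 29 (2.70, SE 0.08). Bmp7, made by neural and nephron progenitors among others, fell in kidney EC (10.9 against 57 RPKM, log2 -2.02, SE 0.12) and rose in brain EC (21.5 against 15 RPKM, 0.81, adjusted p = 1.3e-04), like Bmp4 and Bmp6. The circulating Acvrl1 ligands Gdf2 (BMP9) and Bmp10 were at or below 0.022 RPKM on average in the EC and translatome groups.

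Among 11 receptors and co-receptors, 3 were higher and 7 lower in brain EC, and 3 were higher and 4 lower in kidney EC. Bambi, a pseudoreceptor that blocks signalling, rose in brain EC from 2.61 to 29.8 RPKM (log2 3.80, SE 0.09) and less in kidney EC (0.80, adjusted p = 3.0e-05). Tgfbr3 (betaglycan) was higher in brain EC (2.60, adjusted p = 9.2e-11) and in kidney EC (1.17, SE 0.07). The BMP type I receptor Bmpr1a fell in brain EC (5.77 against 18.6 RPKM, -1.40, SE 0.07) and in kidney EC (11.9 against 66.9 RPKM, -2.13, SE 0.14). Rgma, a BMP co-receptor, fell in brain EC (-1.59, SE 0.06) and in kidney EC (-1.99, SE 0.13). The TGF-beta type I receptor Tgfbr1 was lower in EC of both organs (-0.60 and -0.57), in contrast to Tgfbr2.

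Of the 6 signal transducers, 3 were higher and 0 lower in brain EC. Smad1, a BMP transducer, was higher in kidney EC (48.1 against 22.6 RPKM, log2 1.44, SE 0.06) and by less in brain EC (0.45, adjusted p = 1.7e-05). Smad3, a TGF-beta transducer, was higher in brain EC (2.00, adjusted p = 2.3e-10) and did not pass in kidney EC (0.19, adjusted p = 0.061). Of 9 further target and feedback genes, 7 were higher and 2 lower in brain EC, against 3 and 3 in kidney EC. Tgfbi was higher in brain EC (log2 2.85, SE 0.09) and lower in kidney EC (-1.59, adjusted p = 5.5e-07). Id2 and Id4, relatives of Id1 and Id3, were lower in EC of both organs. Id2 was at -1.73 in brain (SE 0.10) and -1.21 in kidney, and Id4 at -1.24 and -1.31.

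Of the 10 extracellular antagonists and modulators, 2 were higher, 5 lower and 3 did not pass in brain EC, and 1 was higher, 4 lower and 5 did not pass in kidney EC. Fst (follistatin) fell in brain EC (log2 -2.34, SE 0.17) and did not pass in kidney EC (-1.03, adjusted p = 0.031). Sostdc1 fell in kidney EC (-2.57, SE 0.23) and in brain EC (-1.02, SE 0.16). Bmper fell in both as well (-2.05, SE 0.19, in kidney and -1.25, SE 0.11, in brain). Ltbp1, which tethers latent TGF-beta to the matrix, was higher in both (2.38 in brain, and 0.85, SE 0.16, in kidney).

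**Figure D5:**
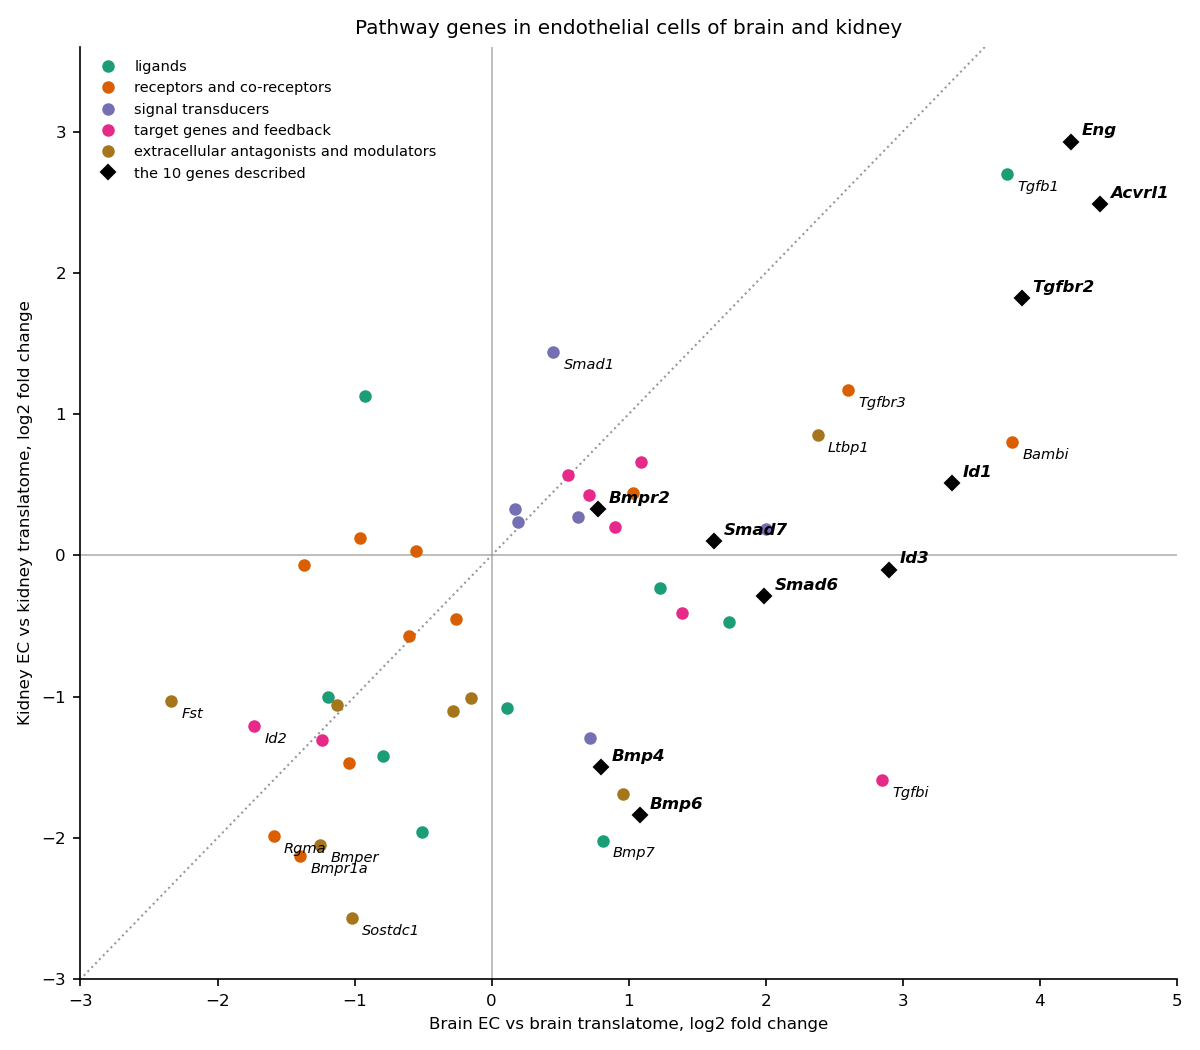
Log2 fold change of EC against whole-organ translatome in brain (x) and kidney (y) for the pathway genes with at least 2 RPKM in some of the 4 groups (42 of 48 drawn, coloured by list, with 1 more not shown) and the 10 members (black diamonds); the dotted line marks equal values. Eng, Acvrl1, Tgfbr2 and Tgfb1 are high on both axes, while Bmp4, Bmp6, Bmp7 and Tgfbi are above 0 in brain and below 0 in kidney.

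Set directly against kidney EC, brain EC had 15 of the 48 pathway genes higher and 14 lower, beside 20.1% and 16.9% of all rows. Among those higher in brain EC were Id4 (log2 2.97, SE 0.13), Nbl1 (2.62, SE 0.17) and Nog (noggin, 2.45, SE 0.27), the last pair being BMP antagonists. Bmp2 (-1.40, SE 0.13), Tgfb3 (-1.37, SE 0.14), Ltbp1 (-1.35, SE 0.12) and Id2 (-1.04, SE 0.09) were lower in brain EC. Id4 (-1.24) and Nog (-1.13) were lower in brain EC than in the whole forebrain, and neural markers were at 425 to 540 RPKM in brain EC against 15.4 to 17 in kidney EC. Their part in these differences was not tested. In the Emx1 lineage 10 of the 47 tested were higher and 9 lower than in the forebrain, beside 9.2% and 12.8% of all rows. Ltbp1 (1.16, SE 0.08), Inhbb (0.99, SE 0.05), Bmp3 (0.95, SE 0.09) and Id2 (0.84, SE 0.08) were the highest there. Tgfbi (-3.55, SE 0.15), Tgfb1 (-2.29, SE 0.12), Bmp5 (-1.69, SE 0.13) and Nbl1 (-1.67, SE 0.07) were the lowest.

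The genes whose pattern over the 7 group means was most like each member were listed by Pearson correlation of log2(RPKM + 1), as a description over 7 points. For Eng they were Klf2 (r = 0.9972), Esam (0.9970) and Eltd1 (0.9968), and for Acvrl1 they were Esam (0.9951), Epas1 (0.9950) and Eng itself (0.9948). Tgfbr2 was most like Tubb6 (0.9973), Ctsh and Il10rb. Bmp4 followed Creb3l1 (0.9991), the stromal transcription factor gene Foxd1 (0.9988) and Mgp (0.9958). Foxd1 averaged 65 RPKM in kidney translatome, 12.3 in kidney EC and 6.21 in brain EC, beside 24.7, 6.80 and 4.46 of Bmp4.

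Smad6 was most like Nmrk1 (0.9949), Smad7 like Nt5dc1 (0.9977), Id1 like Fkbp9 (0.9975) and Id3 like Fkbp7 (0.9982). Bmp6 was most like Nkd1, a Wnt feedback inhibitor (r = 0.9712), which averaged 71.7 RPKM in brain EC and 5.18 in kidney EC. For Bmpr2 it was Fryl (0.9796). With a pseudocount of 0.1 in place of 1, 21 of these 30 rows were chosen again, and without the minimum of 5 RPKM 28 were.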

How the data were processed

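Ribosome-bound and total RNA of 21 samples in 7 groups of 3 replicates were sequenced with a poly(A) library kit. Per the study's methods, the authors aligned reads to GRCm38 (mm10) with RUM and counted them with rpkmforgenes on UCSC refGene models. The deposited tables give for each gene the raw read count and the RPKM (reads scaled by transcript length and mapped reads), which the authors computed per sample without pooling replicates. The strand setting is not given in the sources used here. Of these values, read counts were tested and RPKM were used for levels.

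The quasi-likelihood test of edgeR 4.0.16 (glmQLFit and glmQLFTest after TMM scaling, two-sided, R 4.3.3) was run on all rows with at least 1 count. There were 9 pairwise comparisons on 6 samples each and 2 interactions on 12 samples. The p-values were adjusted by Benjamini-Hochberg over all rows tested, with a threshold of 0.001, and each SE was taken as the size of the log2 value over the root of its F statistic. The study's methods name DESeq, so DESeq2 1.42.0 was an alternative, with RLE size factors, total counts alone, at least 10 counts in 3 samples, a replicate block, a fit of all 21 samples, and each library left out in turn. The code was tested on simulated data.

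The members and lists were chosen with earlier results of these data known. The text names the 10 members, the pathway genes with the 4 largest rises and 4 largest falls past the threshold at 2 RPKM or more, and the 3 most similar rows per member at 5 RPKM or more (log2, pseudocount 1); exceptions are stated, and 1 pathway gene that the rule names is not reported here. Of 9 marker lists, counts and summed levels are given. Gene positions came from GENCODE vM21.

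Replicates are separate tissue samples per the study, and no pair of libraries agreed within sampling noise. Translatome and transcriptome of an organ were purified from the same tissue samples, and the deviations of same-numbered libraries from their group means correlated at 0.609, 0.505 and 0.619 in brain and 0.621, 0.514 and 0.570 in kidney. In the EC groups, where only the number is shared, they were 0.263, 0.174 and 0.140. These pairs were treated as paired in the alternative with the block. Depth was 21760652 to 79231692 counted reads per library, and the precision is given as SD or SE over 3 replicates.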

Additional observations from a re-analysis of the deposited data

Results flagged for a closer look

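A difference between the organs in the enrichment of endothelial over whole-organ translatome was found by the edgeR interaction test for 9 members, with values (brain minus kidney, log2) of 1.33 for Eng, 1.98 for Acvrl1, 2.07 for Tgfbr2, 2.31 for Smad6, 1.55 for Smad7, 2.88 for Id1, 3.03 for Id3, 2.33 for Bmp4 and 2.95 for Bmp6. For Bmp4 and Bmp6 the enrichment also had opposite signs and was called in both organs, at 0.80 and 1.08 in brain and -1.50 and -1.84 in kidney. Smad6 (1.99 in brain and -0.29 in kidney) and Id3 (2.90 and -0.10) had opposite signs too, but their kidney values did not pass. For Smad6, Smad7, Id1 and Id3 the brain translatome stood 1.64 to 2.67 below the kidney translatome on the log2 scale, whereas the EC groups differed by -0.31, -0.21, 0.40 and 0.24. The 10 endothelial markers had differences of 1.41 to 1.90. The part of residual neural, epithelial and stromal RNA, whose summed levels are given above, was not tested.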

How the results depend on the processing

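Over the 11 comparisons, 620 of 660 member values kept their direction and their side of the threshold under the alternatives that keep all libraries, and 744 of 780 did with 1 library left out. Among the rest, 11 calls were lost, 24 gained and 5 signs turned under the former, and 25, 5 and 6 under the latter. The signs that turned belonged to values not called. With total counts alone, kidney EC against kidney translatome turned to -0.04 for Bmpr2 and -0.27 for Smad7, and against kidney total RNA to -0.09 for Bmpr2, -0.08 for Smad6 and -0.31 for Smad7. With 1 library left out, Bmpr2 in brain EC against kidney EC ranged from -0.06 to 0.22, Acvrl1 and Bmpr2 in kidney translatome against transcriptome from -0.01 to 0.14 and from -0.13 to 0.00, and Tgfbr2 in the organ difference of ribosome association from -0.06 to 0.19.

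The members called in brain EC against kidney EC numbered 5 in place of 3 with DESeq2 and 5 in a fit of all 21 samples (Tgfbr2 and Id1 were added). In brain translatome against transcriptome they numbered 4 in place of 7 with at least 10 counts in 3 samples, and 3 to 9 with 1 library left out. The replicate block gave 3 in place of 0 for the organ difference of ribosome association, and also 9 in place of 7 for brain translatome against transcriptome. In brain against kidney translatome the block lost the call of Eng (-0.38, adjusted p = 1.2e-03). In brain EC against kidney EC it gained that of Id1 (0.41, adjusted p = 6.0e-04). No other member's call changed outside the comparisons of whole-organ translatome with transcriptome and their organ difference. Over all rows the block called 4636 rows higher and 4860 lower in kidney translatome against transcriptome (2880 and 3049 without it). In the organ difference of ribosome association it called 1467 and 1978 rows, and DESeq2 1064 and 1522, in place of 472 and 829. Counts over all rows are not given here for the other changes in member counts, which are thus not read as particular to the members. The cause of these changes was not tested. All 10 members had counts in every library, and each SE rests on the spread over 3 replicates per group.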

Other observations

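Between whole organs, the pathway genes higher in the forebrain than in the kidney translatome were led by Inhbb (log2 fold change 4.37, SE 0.15), Id4 (2.99, SE 0.08), Nog (2.61, SE 0.13) and Rgmb (2.41, SE 0.07). Those lower were led by Tgfbi (-4.40, SE 0.08), Smad9 (-3.72, SE 0.19), Bmp2 (-3.50, SE 0.14) and Ltbp1 (-2.79, SE 0.16). In all 12 of the 48 pathway genes were higher and 21 lower in the forebrain, with a median of -0.23, beside 27.2% and 26.2% of all rows.

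Ribosome-bound levels exceeded total RNA for 9 of 47 pathway genes in brain, where 18.6% of all rows were higher and 18.5% lower. These 9 were led by Bambi (1.23, SE 0.10), Tgfb1 (1.00, SE 0.11), Nbl1 (0.94, SE 0.11) and Bmp7 (0.81, SE 0.09), and 4 genes were lower, Chrd (-1.40, SE 0.10), Acvr2a (-0.34, SE 0.05), Bmpr1a (-0.29, SE 0.05) and Tgfbr1 (-0.25, SE 0.05). In kidney 13 of 48 were higher, beside 14.9% of all rows, and 35 did not pass. Those higher were led by Bmp5 (0.80, SE 0.14), Tgfb1 (0.76, SE 0.05), Bambi (0.71, SE 0.08) and Id2 (0.70, SE 0.06). Red blood cell markers were lower in the translatome than in total RNA in both organs, for 3 of 5 genes tested in brain and 3 of 4 in kidney. Choroid plexus markers were lower in brain EC than in the brain translatome for 2 of 5 genes (132 to 182 against 522 to 641 summed RPKM). Microglial and macrophage markers were lower in brain EC for 2 of 5 genes (11.7 to 13.6 against 23.5 to 25.3 summed RPKM) and in kidney EC for 5 of 5 (3.87 to 4.23 against 15.7 to 19.7). The 4 markers of the Emx1 lineage were lower in brain EC (58.7 to 75.8 against 309 to 318 summed RPKM) and higher in the Emx1 translatome (633 to 647).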
